A study of Mus musculus with 8 samples.

Results

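The 10 genes described here encode proteins that take up cholesterol, move it into the mitochondrion and turn it into progesterone, androgens and oestrogens: Star, Cyp11a1, Cyp17a1, Cyp19a1, Hsd3b1, Hsd17b1, Fdx1, Fdxr, Scarb1 and Akr1c18. They were chosen by name from the gene column of the arrays, and all 10 had probes there, 13 in all. Star, Fdx1 and Scarb1 had 2 probes each and the others 1. All 10 passed the filter on dim probes and belonged to the 25536 genes tested, Cyp11a1 and Hsd3b1 through their Nedd9-WT arrays alone. They were compared between ovarian tumours that arose in 4 Nedd9-null and 4 Nedd9-WT female mice, each tumour on 1 array. Both genotypes were TgMISIIR-TAg mice of C57BL/6J strain: the SV40 T antigen is expressed from the promoter of Amhr2, the anti-Muellerian hormone receptor, so that every tumour, those of the Nedd9-WT mice included, was driven by this transgene. None of the mice received a drug, and the labels give no age. NEDD9 is a scaffold protein of focal adhesions, and the study set tumours with and without it side by side. Samples were whole frozen tumour pieces, in which fewer cells of a type and less RNA per cell cannot be told apart.

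In the ovary, steroid hormones are made by cooperating cells. Theca cells and luteal cells take cholesterol from lipoproteins, STAR carries it to the inner mitochondrial membrane, and CYP11A1 cleaves its side chain to pregnenolone with electrons that pass through the flavoprotein FDXR and the iron-sulphur protein FDX1. HSD3B1 then makes progesterone, CYP17A1 makes androgens, and in granulosa cells CYP19A1 (aromatase) and HSD17B1 make oestradiol. The nuclear receptor NR5A1 is a known activator of many of these genes.

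A level is the log2 of a probe's signal over the 75th percentile of its own array. A difference is the Nedd9-null mean minus the Nedd9-WT mean, with its standard error (SE) from limma, and adjusted p-values are Benjamini-Hochberg values over all genes tested, with a threshold of 0.05. Nedd9 itself was at -2.01, -3.50, -3.39 and -4.03 in Nedd9-null replicates 1 to 4, against 1.15, 0.84, 1.30 and 1.85 in Nedd9-WT replicates 1 to 4. The genotypes did not overlap, the difference was -4.51 (SE 0.44, limma adjusted p = 0.0281), and which part of the gene is deleted, and so whether this probe lies in it, is not given in the labels. With any of Nedd9-null replicates 2 to 4 or Nedd9-WT replicates 2 to 4 left out, the difference of Nedd9 was -4.66 to -4.25 and did not pass (limma adjusted p = 0.0876 to 0.123). Nedd9-null replicate 1 stood apart from the other Nedd9-null arrays: it correlated at 0.886 to 0.920 with them and at 0.938 to 0.973 with the Nedd9-WT arrays. The differences of the 10 genes, and most of those of other genes, are therefore also given without it. Each genotype was hybridised on a slide of its own, so slide and genotype cannot be told apart.

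Of the 10 steroid synthesis genes, 9 were lower on average in Nedd9-null tumours and Cyp17a1 was higher. None passed the threshold, while 6 had an unadjusted limma p under 0.05 (5 of them lower). Over all genes tested, 17 passed, which is 0.0666%, and 2 of these (0.00783%) were lower. An unadjusted p under 0.05 was found for 23.9% of all genes. The median difference was -2.65 over the 10 genes and 0.03 over all genes tested. Without Nedd9-null replicate 1, the median was -2.78 against -0.07 over all genes, and 4 of the 10 genes passed, all lower: Cyp11a1, Hsd17b1, Fdxr and Scarb1. In that fit 8.36% of all genes passed as lower and 10.3% as higher.

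**Figure D1:**
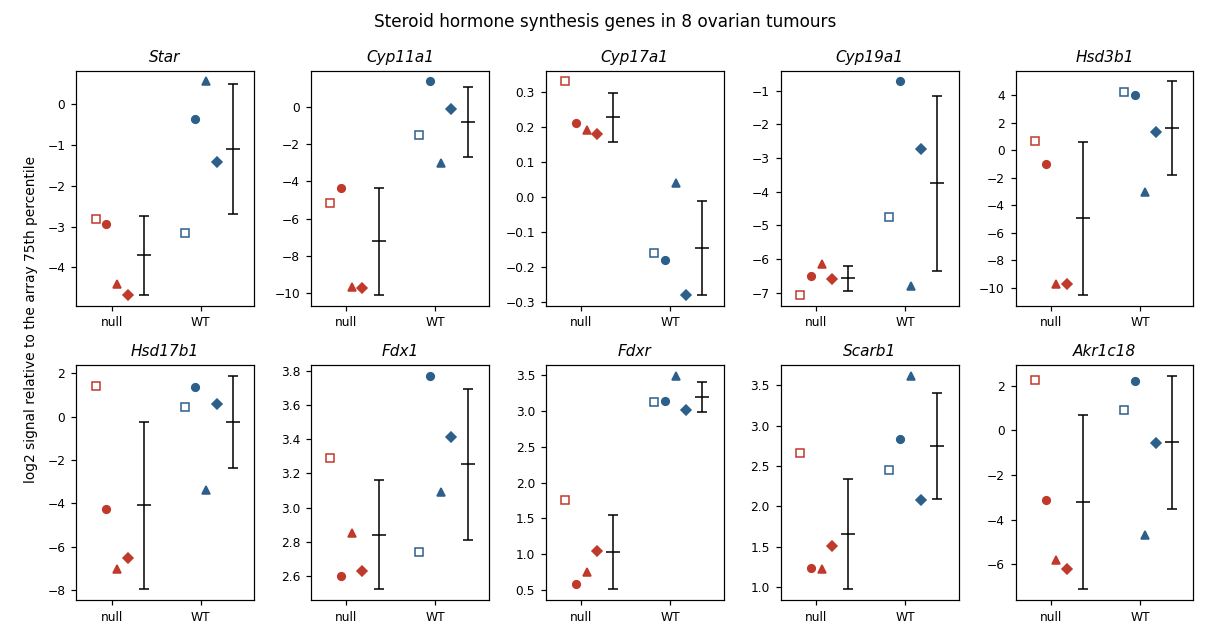
Log2 level, over the 75th percentile of its array, of the 10 genes in 4 Nedd9-null tumours (red, left) and 4 Nedd9-WT tumours (blue, right). Open squares, circles, triangles and diamonds are replicates 1, 2, 3 and 4, and black bars are the mean ± SD (n = 4). Each panel has its own scale. The groups did not overlap for Cyp11a1 and Fdxr, lower in Nedd9-null, and for Cyp17a1, higher in Nedd9-null by 0.37.

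Cholesterol uptake and transfer came first in the pathway. Scarb1 encodes the receptor SR-B1, which takes cholesterol esters from high-density lipoprotein. Its brighter probe (mm9 chr5:125757483-125757542, minus strand) read 2.66, 1.23, 1.22 and 1.51 in Nedd9-null replicates 1 to 4, against 2.45, 2.83, 3.62 and 2.08 in Nedd9-WT replicates 1 to 4. Nedd9-null replicate 1 lay among the Nedd9-WT tumours, and the other 3 Nedd9-null tumours lay below all of them. The difference was -1.09 (SE 0.43, limma adjusted p = 0.181) over all arrays and -1.43 (SE 0.36, limma adjusted p = 0.0346) without Nedd9-null replicate 1. The other Scarb1 probe (chr5:125761540-125761599) gave -1.22 (SE 0.45).

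Star was measured by 2 probes that lie apart on mouse chromosome 8 of mm9 (plus strand). The brighter one (chr8:26925460-26925519) gave -2.82, -2.93, -4.40 and -4.67 in Nedd9-null replicates 1 to 4, against -3.16, -0.36, 0.55 and -1.41 in Nedd9-WT replicates 1 to 4. Here the overlap came from a Nedd9-WT tumour: replicate 1 fell among the Nedd9-null values, while the other 3 Nedd9-WT tumours lay above all Nedd9-null tumours. The difference was -2.61 (SE 0.82, limma adjusted p = 0.125) over all arrays, a 6.1-fold lower mean, and -2.90 (limma adjusted p = 0.065) without Nedd9-null replicate 1. The probe upstream (chr8:26920280-26920339) gave -2.59 (SE 0.83), and both probes followed the same profile to within 0.24 on the log2 scale on every array.

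Probes of 3 genes are printed because their letters bear on what was measured: the second Star probe reads another stretch of the transcript than the first and gave the same profile, and the Cyp11a1 and Cyp17a1 probes map across 471 and 614 bases of mm9, more than their 60 letters, so they cross an intron and match spliced RNA. All are written 5′ to 3′ as on the array, in lower case throughout.
Star: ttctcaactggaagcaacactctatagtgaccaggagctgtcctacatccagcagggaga
Cyp11a1: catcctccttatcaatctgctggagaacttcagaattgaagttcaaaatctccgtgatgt
Cyp17a1: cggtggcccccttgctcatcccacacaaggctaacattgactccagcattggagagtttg

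Cyp11a1, the cholesterol side-chain cleavage enzyme that commits cholesterol to steroid synthesis, was among the genes with the widest spread. The probe printed above (mm9 chr9:57874074-57874544, plus strand) read -5.15, -4.36, -9.70 and -9.71 in Nedd9-null replicates 1 to 4, against -1.52, 1.37, -3.03 and -0.12 in Nedd9-WT replicates 1 to 4. Every Nedd9-null tumour was below every Nedd9-WT tumour, Nedd9-null replicate 1 included, and Nedd9-null replicates 3 and 4 were not well above background. The difference was -6.41 (SE 1.51, limma adjusted p = 0.0915), with an exact permutation p of 0.0286 (2-sided, n = 4 each), the smallest that 4 against 4 arrays can give. With every value raised to the lowest level that was well above background on its array, the difference was -5.43 (limma adjusted p = 0.0845), and without Nedd9-null replicate 1 it was -7.10 (limma adjusted p = 0.022). Of all genes tested, 5.58% likewise had 4 Nedd9-null values below all 4 Nedd9-WT values. Cyp11a1 passed the filter on dim probes through its Nedd9-WT arrays alone, so its lack of overlap and these p-values are not independent of the filter. The range of Cyp11a1 over the 8 arrays was 11.08, and 0.0979% of the genes tested had a larger one.

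Fdxr encodes ferredoxin reductase, the flavoprotein that starts the electron transfer to the mitochondrial P450 enzymes. Its probe (mm9 chr11:115129567-115129626, minus strand) read 1.75, 0.58, 0.75 and 1.04 in Nedd9-null replicates 1 to 4, against 3.12, 3.14, 3.49 and 3.01 in Nedd9-WT replicates 1 to 4. The groups were well separated: the highest Nedd9-null tumour lay below the lowest Nedd9-WT tumour, and the Nedd9-WT values spanned only 0.48. The difference was -2.16 (SE 0.27, 95% confidence interval -2.79 to -1.53), a 4.48-fold lower mean, with a limma adjusted p of 0.0587 and an exact permutation p of 0.0286, the smallest possible. Fdxr was the member nearest to the threshold, and it passed without Nedd9-null replicate 1 (-2.40, SE 0.19, limma adjusted p = 0.000461). It also passed with normexp background correction, where 0.0862% of all genes were called, and in the authors' deposited table of values, where 0.0744% were called. With array weights it passed too, but 23.4% of all genes did. Over 19 settings Fdxr passed in these 4 alone, with differences of -2.40 to -2.01 and limma adjusted p up to 0.217. It did not pass with median scaling (limma adjusted p = 0.0544), quantile normalization (0.0532) or the replicate block (0.217).

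Fdx1 encodes ferredoxin 1, the electron carrier that FDXR reduces. Its brighter probe (mm9 chr9:51751616-51751675, minus strand) read 3.29, 2.60, 2.85 and 2.63 in Nedd9-null replicates 1 to 4, against 2.74, 3.77, 3.09 and 3.41 in Nedd9-WT replicates 1 to 4. The genotypes overlapped, and Nedd9-null replicate 1 was above 2 Nedd9-WT tumours. The difference was -0.41 (SE 0.27, 95% confidence interval -1.03 to 0.21, limma adjusted p = 0.387), and the other Fdx1 probe (chr9:51756743-51756802) gave -0.50 (SE 0.28). The intervals of Fdx1 and of its partner Fdxr did not overlap, though the difference between these 2 genes was not tested.

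**Figure D2:**
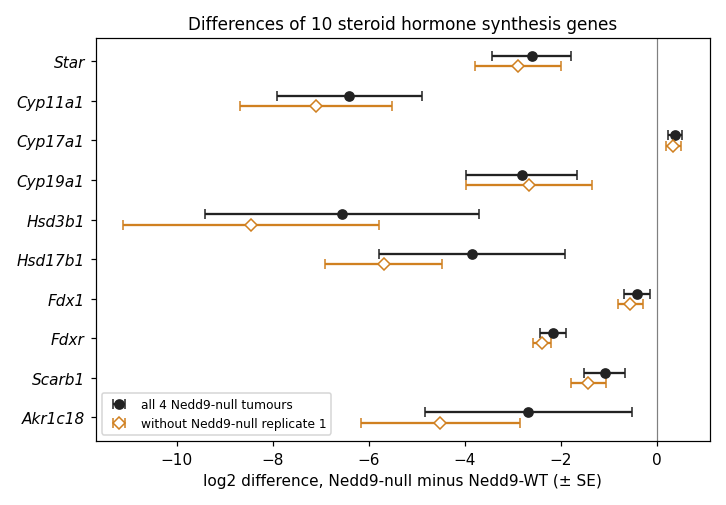
Log2 difference of each gene, Nedd9-null minus Nedd9-WT, on the horizontal axis, with the standard error of the limma fit. Filled circles use all 4 Nedd9-null tumours and open diamonds leave out replicate 1. Without it, Hsd3b1, Hsd17b1 and Akr1c18 lie further below 0 (-8.45, -5.69 and -4.51), while Cyp17a1 stays near 0 at 0.34.

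Hsd3b1 turns pregnenolone into progesterone and is one of a family of similar mouse genes. Its probe (mm9 chr3:98656127-98656186, minus strand) read 0.70, -1.03, -9.77 and -9.71 in Nedd9-null replicates 1 to 4, against 4.23, 3.98, -3.07 and 1.30 in Nedd9-WT replicates 1 to 4. Both genotypes were mixed: Nedd9-null replicates 3 and 4 were not well above background, and Nedd9-WT replicate 3 was below Nedd9-null replicates 1 and 2. The difference of -6.56 (SE 2.86, limma adjusted p = 0.212) had a 95% confidence interval of -13.18 to 0.05. Its range over the 8 arrays was 14.0 on the log2 scale, and 0.0196% of the genes tested had a larger one. Hsd3b6, the related form listed among theca and Leydig cell genes, was well above background in 1 Nedd9-null and 3 Nedd9-WT tumours and differed by -4.27 (limma adjusted p = 0.167). Hsd3b6 passed the filter through its Nedd9-WT arrays alone. Whether the Hsd3b1 probe also binds transcripts of such relatives was not tested.

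Cyp17a1, the enzyme that makes androgens in theca cells, went the other way and hardly varied. The probe printed above (mm9 chr19:46742594-46743207, minus strand) read 0.33, 0.21, 0.19 and 0.18 in Nedd9-null replicates 1 to 4, against -0.16, -0.18, 0.04 and -0.28 in Nedd9-WT replicates 1 to 4. The groups did not overlap, as was so for 7.16% of all genes in this direction, but the difference was only 0.37 (SE 0.14, 95% confidence interval 0.05 to 0.70, limma adjusted p = 0.167). The exact permutation p was 0.0286, the smallest possible. All 8 values lay within 0.61 of each other, and 88.8% of the genes tested had a larger range. The gene stayed at 0.18 to 0.43 over the other settings run, and passed in none.

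The last steps to oestradiol are made by Hsd17b1 and Cyp19a1. Hsd17b1 (probe at mm9 chr11:100941537-100941596, plus strand), which reduces oestrone to oestradiol, read 1.40, -4.26, -7.01 and -6.52 in Nedd9-null replicates 1 to 4, against 0.46, 1.36, -3.37 and 0.58 in Nedd9-WT replicates 1 to 4. Nedd9-null replicate 1 was the highest of all 8 tumours, and the other 3 Nedd9-null tumours were below every Nedd9-WT tumour. The difference was -3.85 (SE 1.93, limma adjusted p = 0.266) over all arrays and -5.69 (SE 1.22, limma adjusted p = 0.0198) without Nedd9-null replicate 1. Cyp19a1 (probe at mm9 chr9:54013778-54013837, minus strand), the aromatase, read -7.07, -6.50, -6.16 and -6.60 in Nedd9-null replicates 1 to 4, against -4.76, -0.73, -6.80 and -2.75 in Nedd9-WT replicates 1 to 4. Its 4 Nedd9-null values were low and close together, and the Nedd9-WT tumours spread over 6.07 with replicate 3 among the Nedd9-null values. The difference was -2.82 (SE 1.16, limma adjusted p = 0.192), and leaving out Nedd9-null replicate 1 gave -2.66 (limma adjusted p = 0.211).

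Akr1c18 encodes 20-alpha-hydroxysteroid dehydrogenase, which inactivates progesterone at the end of the mouse luteal phase. Its probe (mm9 chr13:4131895-4131954, minus strand) read 2.26, -3.11, -5.82 and -6.20 in Nedd9-null replicates 1 to 4, against 0.91, 2.19, -4.68 and -0.56 in Nedd9-WT replicates 1 to 4. As with Hsd17b1, Nedd9-null replicate 1 was the highest of all 8 tumours, and Nedd9-WT replicate 3 sat among the low Nedd9-null values. The difference was -2.68 (SE 2.15, 95% confidence interval -7.66 to 2.30, limma adjusted p = 0.489), and -4.51 (limma adjusted p = 0.106) without Nedd9-null replicate 1.

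The tumours therefore fell in no single order. The mean of the 10 genes, taken as the log2 difference from their Nedd9-WT means, was -0.69, -2.18, -4.21 and -4.23 in Nedd9-null replicates 1 to 4, against 0.01, 1.32, -1.44 and 0.11 in Nedd9-WT replicates 1 to 4. Nedd9-null replicates 1 to 4 had 3, 5, 7 and 8 of the 10 genes below every Nedd9-WT tumour. In Nedd9-null replicate 1 these 3 were Cyp11a1, Cyp19a1 and Fdxr, and Cyp17a1, Hsd17b1 and Akr1c18 were above every Nedd9-WT tumour. In the other 3 Nedd9-null tumours, Cyp17a1 alone was above. Nedd9-WT replicate 3 was the lowest Nedd9-WT tumour for Cyp11a1, Hsd3b1, Cyp19a1, Hsd17b1 and Akr1c18, and the highest for Star, Cyp17a1, Fdxr and Scarb1.

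**Figure D3:**
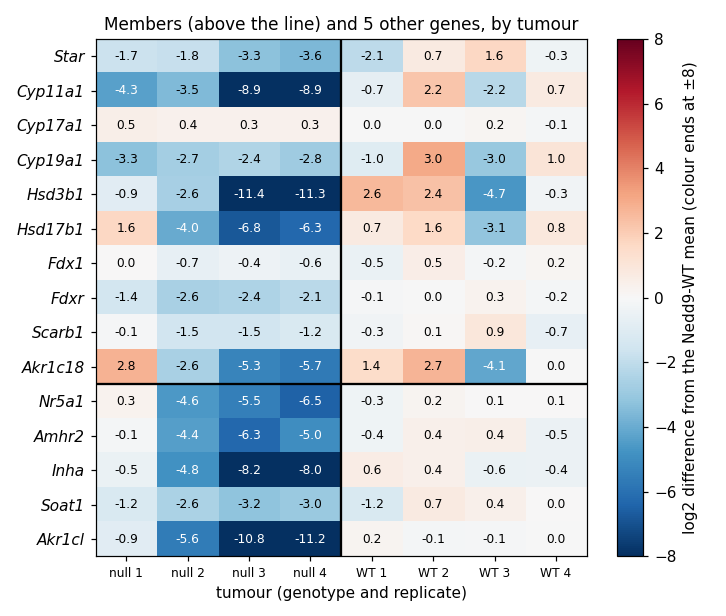
Log2 difference of each tumour (columns, Nedd9-null left, Nedd9-WT right) from the mean of the Nedd9-WT tumours, for the 10 genes above the line and Nr5a1, Amhr2, Inha, Soat1 and Akr1cl below it. Blue is lower and red higher; colours end at ±8 and the numbers are the values. Nedd9-null replicates 3 and 4 are lowest for Cyp11a1 and Hsd3b1, and Nedd9-null replicate 1 lies near the Nedd9-WT tumours for the 5 genes below the line.

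RefSeq promoter windows (GRCm38.p6, 250 bases before to 50 after a transcript start) were matched for 6 of the 10 genes, with 9 windows in all. Star, Cyp17a1, Hsd17b1 and Scarb1 had none. The letters AAGGTCA, a site of NR5A1, were searched on both strands and are in none of the 9 windows, against 4.72% of all 32851 windows. At that share, 9 windows are too few to show an absence. The letters AGATAA, read by GATA4, are in the Hsd3b1 window alone (11.2% of all windows), and GGGCGG, read by SP1, is in 4 of the 9 windows (35.7% of all). No window holds more than 1 of the 3 motifs, and these counts describe letters only. The windows of Fdxr and of 1 of the Cyp11a1 starts are shown, as the genes whose Nedd9-null values lay below every Nedd9-WT value. Capitals mark GGGCGG or its reverse complement: Fdxr (chr11:115276920-115277219, minus strand) holds it 3 times, and the Cyp11a1 window (chr9:58014702-58015001, plus strand) holds none of the 3 motifs. The window of the other Cyp11a1 start (chr9:57997774-57998073), not shown, holds GGGCGG once, on the opposite strand.
Fdxr: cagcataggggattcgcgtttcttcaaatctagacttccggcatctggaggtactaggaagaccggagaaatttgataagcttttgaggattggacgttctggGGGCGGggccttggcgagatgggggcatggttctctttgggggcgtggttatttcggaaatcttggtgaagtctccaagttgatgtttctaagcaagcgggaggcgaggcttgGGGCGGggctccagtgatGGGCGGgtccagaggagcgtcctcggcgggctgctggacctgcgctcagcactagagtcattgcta
Cyp11a1: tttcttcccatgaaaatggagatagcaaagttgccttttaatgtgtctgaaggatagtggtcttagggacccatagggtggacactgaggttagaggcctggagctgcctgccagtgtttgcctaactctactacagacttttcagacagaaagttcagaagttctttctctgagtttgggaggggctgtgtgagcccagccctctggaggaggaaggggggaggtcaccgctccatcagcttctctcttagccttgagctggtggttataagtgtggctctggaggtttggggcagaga

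Genes around the 10 were read from lists by role, which like the 10 genes were set with earlier results of these data known. Of 30 measured regulators of steroidogenesis, 23 were lower and 7 higher on average, and none passed over all arrays. Without Nedd9-null replicate 1, 12 passed as lower, 9 of which were well above background on all 8 arrays, and 3 passed as higher. In that fit 8.36% of all genes tested passed as lower and 10.3% as higher. Nr5a1 read 3.69, -1.14, -2.06 and -3.05 in Nedd9-null replicates 1 to 4, against 3.09, 3.66, 3.49 and 3.49 in Nedd9-WT replicates 1 to 4. Nedd9-null replicate 1 thus lay beside the highest Nedd9-WT tumour for Nr5a1 (3.69 against 3.66), while its Cyp11a1 level differed from the Nedd9-WT mean by -4.32. Any link between these 2 genes was not tested. The difference of Nr5a1 was -4.07 (SE 1.32, limma adjusted p = 0.13) and -5.52 (limma adjusted p = 0.00044) without that tumour.

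Among the other regulators, and without Nedd9-null replicate 1, the nuclear receptors Nr5a2 (-6.16), Nr0b1 (-8.15) and Nr0b2 (-4.68), of which the first activates and the others repress such genes, passed as lower. So did Gata4 (-4.60), a gonadal transcription factor, and Fshr, the receptor of follicle-stimulating hormone. Fshr was well above background in 1 Nedd9-null and 4 Nedd9-WT tumours and Nr0b1 in 2 and 4, so both passed the filter through the Nedd9-WT arrays, and their values in the other Nedd9-null tumours are background levels. Sp1 was lower in every Nedd9-null tumour (2.25, 2.10, 2.22 and 2.09, against 2.75, 2.84, 3.02 and 2.59 in Nedd9-WT; difference -0.64, SE 0.15, limma adjusted p = 0.0915, and 0.0284 without Nedd9-null replicate 1). Nr2f1 (COUP-TFI), a nuclear receptor that can repress steroid enzyme genes, was higher at 5.89 without Nedd9-null replicate 1 (limma adjusted p = 0.00225). Nr2f2 (1.66) and Foxo1 (1.02) also passed as higher in that fit. The receptor of luteinising hormone, Lhcgr, was well above background in 0 Nedd9-null and 2 Nedd9-WT tumours and was not tested.

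Cholesterol supply was split. Of 20 genes, 13 were lower and 7 higher, with a median of -0.17, and none passed over all arrays. Without Nedd9-null replicate 1, 3 passed as lower and 3 as higher, against 8.36% and 10.3% of all genes. Soat1, which esterifies cholesterol for storage, read -1.59, -2.94, -3.62 and -3.37 in Nedd9-null replicates 1 to 4, against -1.57, 0.36, 0.02 and -0.33 in Nedd9-WT replicates 1 to 4. The Soat1 values of the genotypes did not overlap, though replicates 1 of both were nearly equal, and the difference was -2.50 (SE 0.55, limma adjusted p = 0.0842), and -2.93 (limma adjusted p = 0.00567) without Nedd9-null replicate 1. Plin2, a coat protein of lipid droplets, gave -1.14 (limma adjusted p = 0.111) and, without that tumour, -1.38 (limma adjusted p = 0.0191). Insig1, which holds back sterol synthesis in the endoplasmic reticulum, was higher by 1.33 (SE 0.20, limma adjusted p = 0.0596) and, without it, by 1.19 (limma adjusted p = 0.00337).

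**Figure D4:**
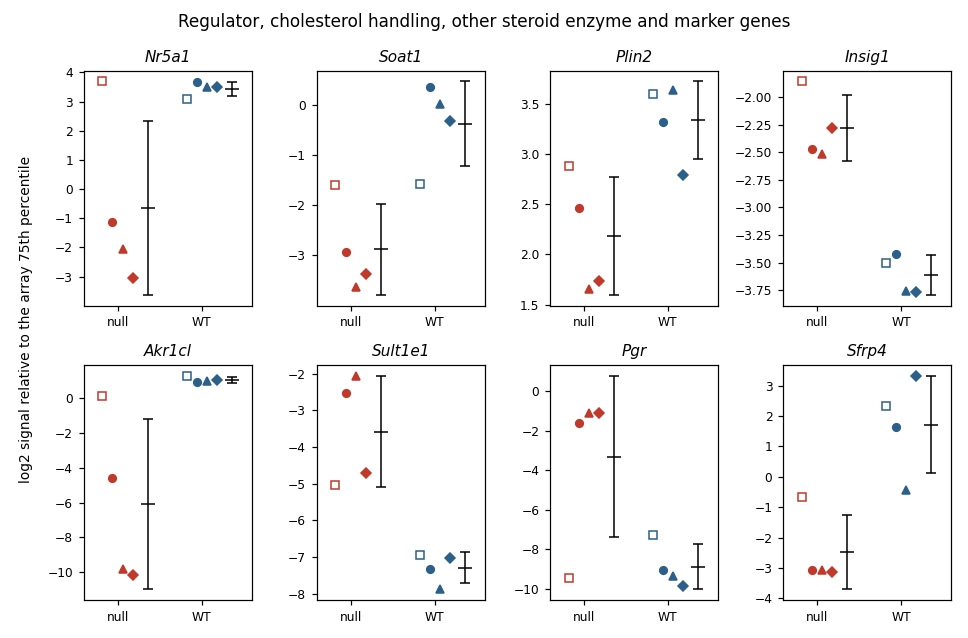
Log2 level, over the 75th percentile of its array, of Nr5a1, Soat1, Plin2, Insig1, Akr1cl, Sult1e1, Pgr and Sfrp4 in 4 Nedd9-null (red, left) and 4 Nedd9-WT tumours (blue, right). Open squares, circles, triangles and diamonds are replicates 1 to 4, black bars are the mean ± SD (n = 4), and each panel has its own scale. Nedd9-null replicate 1 sits with the Nedd9-WT tumours for Nr5a1 and Pgr.

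Of 31 other steroid-converting enzymes measured, 14 were lower and 17 higher, with a median of 0.11, and none passed over all arrays. Without Nedd9-null replicate 1, 5 passed as lower and 1 as higher, against 8.36% and 10.3% of all genes. Hsd17b7, which makes oestradiol in the mouse corpus luteum, differed in that fit by -3.10 (limma adjusted p = 0.00284), and Hsd17b3, the testosterone-making form of Leydig cells, by -4.20 (limma adjusted p = 0.00745), with Hsd17b3 well above background in 2 Nedd9-null and 4 Nedd9-WT tumours. Akr1cl, a relative of Akr1c18, read 0.14, -4.57, -9.78 and -10.15 in Nedd9-null replicates 1 to 4, against 1.28, 0.89, 0.95 and 1.03 in Nedd9-WT replicates 1 to 4. It was not well above background in 2 Nedd9-null tumours, and the difference was -7.13 (SE 2.14, limma adjusted p = 0.115), or -9.21 (limma adjusted p = 0.00349) without Nedd9-null replicate 1. Sult1e1, which inactivates oestrogens by sulphation, was the 1 that passed as higher: it read -5.04, -2.52, -2.05 and -4.72 in Nedd9-null replicates 1 to 4, against -6.94, -7.34, -7.88 and -7.02 in Nedd9-WT replicates 1 to 4. Over all arrays its difference was 3.71 (SE 0.70, limma adjusted p = 0.0756), against 4.20 (limma adjusted p = 0.0048) without that tumour, with 2 of the Nedd9-WT tumours well above background. Sult1e1 thus passed the filter through its Nedd9-null arrays alone, and Akr1cl and Hsd17b3 through their Nedd9-WT arrays alone. With normexp the differences over all arrays were 1.98 for Sult1e1 and -4.92 for Akr1cl.

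Of 7 electron donors and redox partners other than Fdx1 and Fdxr, 2 were lower and 5 higher, with a median of 0.08, and none passed in either fit. Cyb5a, the cytochrome b5 that aids CYP17A1, differed by -0.76 (limma adjusted p = 0.238), and Por, the electron donor of CYP17A1 and CYP19A1, by 0.67 (limma adjusted p = 0.343). Among 12 steroid receptors and responsive genes, 6 were lower and 6 higher, and none passed over all arrays. Without Nedd9-null replicate 1, 1 passed as lower and 4 as higher, against 8.36% and 10.3% of all genes. Those 4 were Esr1 (3.71) and Gper1 (2.10), which bind oestrogens, Pgr (7.62), the progesterone receptor, and Ltf (6.02), lactoferrin. Pgr read -9.43, -1.59, -1.10 and -1.07 in Nedd9-null replicates 1 to 4, against -7.25, -9.03, -9.36 and -9.87 in Nedd9-WT replicates 1 to 4, and it was well above background in Nedd9-null replicates 2 to 4 and in no Nedd9-WT tumour. Pgr therefore passed the filter through its Nedd9-null arrays alone, and its values in the other tumours are background levels. Over all arrays its difference was 5.58, but 3.17 with normexp.

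Markers of cells that normally hold these enzymes were also read, and none of them passed over all arrays. Of 10 granulosa cell markers that are not among the 10 genes, 8 were lower and 2 higher, and without Nedd9-null replicate 1, 6 passed as lower and 1, Fst, as higher. Foxl2 was also higher, by 0.25 (limma adjusted p = 0.419), at 3.61 to 4.10 in Nedd9-null and 3.38 to 3.79 in Nedd9-WT. In that fit 8.36% of all genes passed as lower and 10.3% as higher. Among the 6, Fshr and Amh were each well above background in 1 Nedd9-null and 4 Nedd9-WT tumours. Both therefore passed the filter through the Nedd9-WT arrays. Summed signals of each list, without the 10 genes and in multiples of the 75th percentile, are given for Nedd9-null replicate 1, for Nedd9-null replicates 2 to 4 and for the Nedd9-WT tumours. Granulosa markers summed to 298 in Nedd9-null replicate 1 and 183 to 201 in the other Nedd9-null tumours, against 246 to 284 in Nedd9-WT. Most of each granulosa sum was 1 gene, Kctd14, at 7.26 to 7.85 in Nedd9-null and 7.40 to 7.55 in Nedd9-WT. Its difference was -0.04 (limma adjusted p = 0.926). Of 8 Sertoli cell markers 7 were lower, and their sum was 35.6 in Nedd9-null replicate 1 and 5.86 to 6.54 in the others, against 24.7 to 52.9 in Nedd9-WT. Of 4 further theca and Leydig cell genes 3 were lower, and their sum was 0.666 in Nedd9-null replicate 1 and 0.19 to 0.206 in the others, against 0.358 to 0.819 in Nedd9-WT. In the Nedd9-null tumours most of this sum was Ptch1, which differed by -0.19 (limma adjusted p = 0.803). In the sums of these 3 lists Nedd9-null replicate 1 was within or above the Nedd9-WT range and the other Nedd9-null tumours were below it.

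Corpus luteum markers other than Akr1c18 were lower for 4 of 5 genes, and their sums overlapped: 6.75 in Nedd9-null replicate 1 and 4.87 to 11.3 in the others, against 4.43 to 22.4 in Nedd9-WT. Sfrp4, a WNT antagonist, differed by -4.20 (limma adjusted p = 0.0831), and by -4.81 (limma adjusted p = 0.00724) without Nedd9-null replicate 1. Parm1 went the other way, without overlap, by 1.72 (limma adjusted p = 0.0923) and by 1.91 (limma adjusted p = 0.0227) without that tumour. Amhr2, whose promoter drives the transgene and which marks the gonadal tissue of the label, read 6.46, 2.18, 0.29 and 1.64 in Nedd9-null replicates 1 to 4, against 6.24, 7.0, 7.04 and 6.11 in Nedd9-WT replicates 1 to 4, above background in all 8.

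Markers of other tissues were read in the same tumours, and none of these passed over all arrays either. Ciliated oviduct cell markers were higher for 11 of 11 genes, and 10 passed as higher without Nedd9-null replicate 1. Dnah5, among those that passed, was well above background in 3 Nedd9-null and 1 Nedd9-WT tumours. It thus passed the filter through its Nedd9-null arrays alone. The markers summed to 65.3 in Nedd9-null replicate 1 and 83.0 to 117 in the others, against 9.53 to 22.4 in Nedd9-WT. Most of the sum in Nedd9-null replicate 1 was Mcidas, at 5.83, which differed by 0.55 and by 0.05 without that tumour. Foxj1 read 1.14 in Nedd9-null replicate 1 and 3.16 to 3.84 in the others, against -6.09 to -1.39 in Nedd9-WT. Of 9 oviduct secretory markers 7 were higher and 2, Pax2 (-0.15) and Muc16 (-1.93), lower, and 3 passed as higher without Nedd9-null replicate 1. They summed to 62.0 in Nedd9-null replicate 1 and 150 to 206 in the others, against 38.6 to 54.7 in Nedd9-WT. Much of this was Ovgp1, the oviduct glycoprotein, without which the sums were 57.6 to 77.5 in Nedd9-null and 37.7 to 54.5 in Nedd9-WT. The largest part of what was left was Wt1, which was also listed as a marker of the ovarian tumour of this transgene. Wt1 was at 5.03 to 5.78 in Nedd9-null and 4.85 to 5.43 in Nedd9-WT (difference 0.14, limma adjusted p = 0.731). Ovgp1 read -2.82, 6.38, 7.01 and 6.53 in Nedd9-null replicates 1 to 4, against -0.21, -4.11, -2.74 and -2.61 in Nedd9-WT replicates 1 to 4.

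Adipocyte markers summed to 40.9 in Nedd9-null replicate 1 and 0.329 to 1.55 in the others, against 0.598 to 23.3 in Nedd9-WT. Macrophage markers summed to 61.8 in Nedd9-null replicate 1 and 14.5 to 37.0 in the others, against 16.5 to 28.1 in Nedd9-WT. Nedd9-null replicate 1 thus had the highest sum of all 8 tumours for both lists. Most of its macrophage sum was 1 gene, Itgam, at 5.84, which differed by 0.58 and by 0.06 without that tumour. Itgam ranged from 2.61 to 5.84 in Nedd9-null and 2.79 to 4.25 in Nedd9-WT. The ciliated cell marker Mcidas had nearly the same ranges, 2.73 to 5.83 and 2.85 to 4.30. Whether these probes read the genes they are named for was not tested. The macrophage marker Cd14 was lower there, at -2.36 against 1.63, 0.15 and -0.12 in Nedd9-null replicates 2 to 4. Adrenal cortex markers, a tissue that shares enzymes with the 10 genes, summed to 0.8 in Nedd9-null replicate 1 and 0.0989 to 0.148 in the others, against 0.364 to 0.545 in Nedd9-WT. Most of the sum in Nedd9-null replicate 1 was Mrap, at -0.64. The list was split: Mrap (-2.48) and Akr1b7 (-2.79) were lower on average, and Cyp11b1 (0.38) and Cyp21a1 (0.11) were higher. The 4 oocyte markers tested summed to 0.109 to 0.195 in Nedd9-null and 0.123 to 0.246 in Nedd9-WT tumours, with Zp1, Zp2 and Figla not well above background in any tumour. The part of these cells in the differences of the 10 genes was not tested.

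Profiles were compared, and only genes whose name is no accession, clone, Gm or Rik name were listed. Among these, the genes whose centred profiles over the 8 arrays were closest to those of Star and Cyp11a1 differed between the 2. For Cyp11a1 they were Pcdh7, Dnajb3, S100b, Rflna and Inha, with root mean square differences of 1.48 to 1.74 on the log2 scale. Inha encodes the inhibin alpha subunit made by granulosa cells. For Star they included Gja6, Nxnl2, Mmel1 and Robo3, at 0.51 to 0.59. Gja6 was well above background in no Nedd9-null tumour, so its profile there is a background level, and its difference was -2.65 but -0.64 with normexp. Pcdh7 was well above background in 2 Nedd9-null tumours and Dnajb3 in 3. Among the other steroid synthesis genes, Hsd17b1 was nearest to Cyp11a1 (2.16, rank 44 of 25535 genes) and Fdxr was nearest to Star (1.09, rank 298). Cyp17a1 was far from both, at ranks 18671 and 15334.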

How the data were processed

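RNA of 8 tumours was measured on 8 Agilent arrays in 1 colour (Cy3). The deposited scanner files hold intensity values made with Agilent Feature Extraction 9.5.3, per the submitters' processing notes; per the file headers they were background-subtracted within an array and not normalized between arrays. The other columns, per the file headers, flag outlier, saturated and background spots. The authors' deposited value table holds log2 values that follow the log2 median spot signal (r of at least 0.999 per array); their background step is not given in the sources used here.

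Outlier spots were dropped (194 to 292 per array), spots averaged per probe (39429), and log2 signals set relative to the 75th percentile. Depth has no meaning here: the number of arrays limits the precision. Probes well above background on at least 3 arrays of a genotype were kept, and the brightest stood for a gene. Each sample is 1 mouse, and groups and replicate numbers come from the titles. limma 3.58.1 in R 4.3.3 (with the data.table package, version 1.17.8) fitted Nedd9-null minus Nedd9-WT, 2-sided, over all genes, and was tested on simulated data. Gene names were updated through a RefSeq table of GRCm38.p6, and probe positions are those of mm9 in the files. Named genes are Nedd9, the 10 members, the genes of each pathway list (up to 4) or marker list (up to 2) with the smallest p, and the 5 closest profiles to Star and to Cyp11a1; a few other listed genes were named after their values were seen, and 2 genes the rule gives are not reported here. Closest profiles were taken among genes whose name is no accession, clone, Gm or Rik name. The members, lists and rule were chosen with earlier results of these data known. Same-numbered arrays did not deviate together (correlations of -0.05, -0.23, -0.04 and -0.09), so replicate numbers were not taken as pairs. Another background correction, scaling, source, filter, choice of probe, array weights, the replicate block and leaving out each array were tried.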

Additional observations from a re-analysis of the deposited data

Results flagged for a closer look

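In 122 groups of 4 arrays, 1 for each genotype and gene of the naming rule, 9 had an array far from the other 3, and chance flags about 1 in 20. None was a member of the steroid synthesis genes. Nedd9-null replicate 1 was the array in 6: Pgr at -9.43 (others -1.59 to -1.07), Sfrp4 at -0.65 (others -3.13 to -3.06), Gdf9 at -3.21 (others -4.63 to -4.52), Ovgp1 at -2.82 (others 6.38 to 7.01), Lep at -4.98 (others -5.85 to -5.84) and Lipe at -1.77 (others -4.18 to -4.04). In the Nedd9-WT tumours, Pgrmc1, a progesterone-binding membrane protein, was at 2.66 in replicate 1 (others 3.44 to 3.52). Nedd9-WT replicate 3 stood apart for Inhbb, at 4.08 (others 2.33 to 2.60), and for Gdf9, at -3.28 (others -2.40 to -2.32).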

How the results depend on the processing

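The direction of the 10 genes was kept in all 178 refits of a member gene under the other settings tried. No member passed over all arrays, 1 (Fdxr) passed with normexp or with the deposited table, 6 passed with array weights, and 0 to 4 when 1 array was left out, the 4 without Nedd9-null replicate 1. Over all genes, the count of 17 became 4 with median scaling, 4 with quantile normalization, 7 with probes above background on all 8 arrays and 5984 with array weights. Leaving out 1 array gave 0 to 4771 genes, the highest without Nedd9-null replicate 1 and 42 without Nedd9-WT replicate 1; the count was 2 without Nedd9-null replicate 4 and 0 without each other array, where 3887 to 5409 genes had an unadjusted limma p under 0.05. With the replicate block, 0 genes passed in limma, 4732 had an unadjusted p under 0.05, and the median of the members was -2.65; no Nedd9-null array correlated best with its own number. The cause of these changes was not tested. The share of calls that were higher was 88.2%, but 50% with median scaling, 75% with quantile normalization and 73.7% in the deposited table; median scaling moved the median of all genes to -0.16. An alternative chosen after seeing the data, raising values to the background limit, left 0 members past the threshold. Levels at background, such as Cyp11a1 and Hsd3b1 in Nedd9-null replicates 3 and 4, are upper limits, so their differences are not exact.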
